A study of Mus musculus with 15 samples.

Results

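The 10 genes described here belong to autophagy and the lysosome, and they were chosen by name: Ulk1, Becn1, Map1lc3a, Map1lc3b, Gabarapl1, Sqstm1, Tfeb, Ctsd, Ctsl and Lamp1. All 10 were found among the 39179 genes of the count files, and all 10 passed the filter on low counts in every comparison. Their transcripts were measured by RNA-seq of quadriceps muscle from 15 C57BL/6 mice. Of these, 4 wild-type (WT) and 4 V338Y mice were 3 mo old, and 3 WT and 4 V338Y mice were 19 mo old. V338Y mice are homozygous for an amino acid exchange in MrpS5, a protein of the mitochondrial ribosome, which in this model lowers the accuracy of mitochondrial protein synthesis. The comparisons ask how these transcripts differ between young and old muscle of each genotype, between the genotypes at each age, and whether the age difference depends on genotype.

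Autophagy delivers cytoplasm, protein aggregates and worn organelles, mitochondria among them, to the lysosome. A kinase complex around ULK1 starts the process, a lipid kinase complex around Beclin-1 (Becn1) marks the site, and small proteins of the Atg8 family, which include LC3 (Map1lc3a, Map1lc3b) and the GABARAP proteins, are attached to the growing membrane, where receptors such as p62 (Sqstm1) bring cargo. In the lysosome, cathepsins digest the content behind a membrane lined by LAMP proteins, and TFEB switches on many of these genes. In skeletal muscle the pathway takes part in the turnover of mitochondria and in the response to fasting.

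The libraries held 8250653 to 18968132 counts, and the lowest group mean of any of the 10 genes, that of Ulk1 in young WT mice, was 20.4 CPM (counts of a gene relative to the size of its library, with sizes normalised by TMM). Transcripts of Mrps5 itself were present at 21.1 to 27.5 CPM in the mice of 3 mo and at 14.9 to 19.3 CPM in those of 19 mo, without a difference between genotypes that passed the test. As the mutation changes one amino acid, this level does not check the genotype labels. The study's methods describe the mice of 3 mo as female, but all 8 of these libraries carried Y-linked RNA (Ddx3y at 163 to 202 CPM) with Xist at no more than 0.574 CPM, whereas the 7 libraries of 19 mo had Xist at 506 to 631 CPM and Ddx3y at no more than 0.0826 CPM. Age and sex therefore cannot be told apart in any comparison of the ages below, and each such difference is one between libraries that differ in both. The genotype comparisons lie within 1 age and 1 such pattern. Myofiber genes were abundant in every library, with 10 markers summing to 167862 to 321228 CPM. One V338Y mouse of 19 mo, number 5, stood apart with 9 neutrophil markers at a sum of 652 CPM, against 0.364 to 28.6 CPM in the other mice. In bulk tissue, fewer cells of a type and less RNA per cell cannot be told apart.

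TFEB is known to bind promoters of lysosomal genes at a sequence with the core CACGTG, so the promoters of the genes were searched for it. Of the 10 genes, 8 were matched to a promoter (250 bases before to 50 after the start site, RefSeq, GRCm38.p6), and Map1lc3a and Becn1 were not. CACGTG reads the same on both strands. It was found in the windows of 3 of the 8 genes, all 3 of them lysosomal: once in Ctsl, 236 bases before the start, at 245 and 98 bases before the start in Ctsd, and 4 times in Lamp1, at 61, 45, 28 and 15 bases before it. In all, 7.15% of 32817 promoters of this length held it. The start that the table gives for Ctsl lies 370 bases inside the gene as GENCODE bounds it, so its window is not upstream of the gene, and that for Ctsd lies 211 bases inside, whereas that for Lamp1 is the first base of the gene. Shown are the 250 bases before the start of Lamp1, which holds the most matches, and 30 bases around each match of Ctsd, the one of these 3 genes that was called lower with age in both genotypes. They run 5′ to 3′ on the strand of the gene, with CACGTG in capitals.
Lamp1, chr8:13158911-13159160, plus strand: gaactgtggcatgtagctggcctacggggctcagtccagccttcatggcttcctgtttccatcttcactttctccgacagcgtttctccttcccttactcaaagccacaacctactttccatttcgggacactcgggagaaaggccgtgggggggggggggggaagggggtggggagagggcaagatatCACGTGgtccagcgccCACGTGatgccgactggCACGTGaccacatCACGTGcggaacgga
Ctsd, farther match, chr7:142388048-142388077, minus strand: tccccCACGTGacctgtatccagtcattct
Ctsd, nearer match, chr7:142387908-142387937, minus strand: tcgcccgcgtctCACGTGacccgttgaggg
The sequence was not in the windows of Ulk1, Gabarapl1, Map1lc3b, Sqstm1 or any of the 3 start sites of Tfeb. In lists of the wider pathway, it was present in 18 of the 58 genes with a promoter entry in the lysosomal lists (31.0%), in 9 of 49 in the autophagy lists (18.4%), in 6 of 16 in the list of mTORC1 and its lysosomal anchors (37.5%) and in 0 of 5 transcription factors, against 8.09% of all 27025 genes with an entry.

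**Figure D1:**
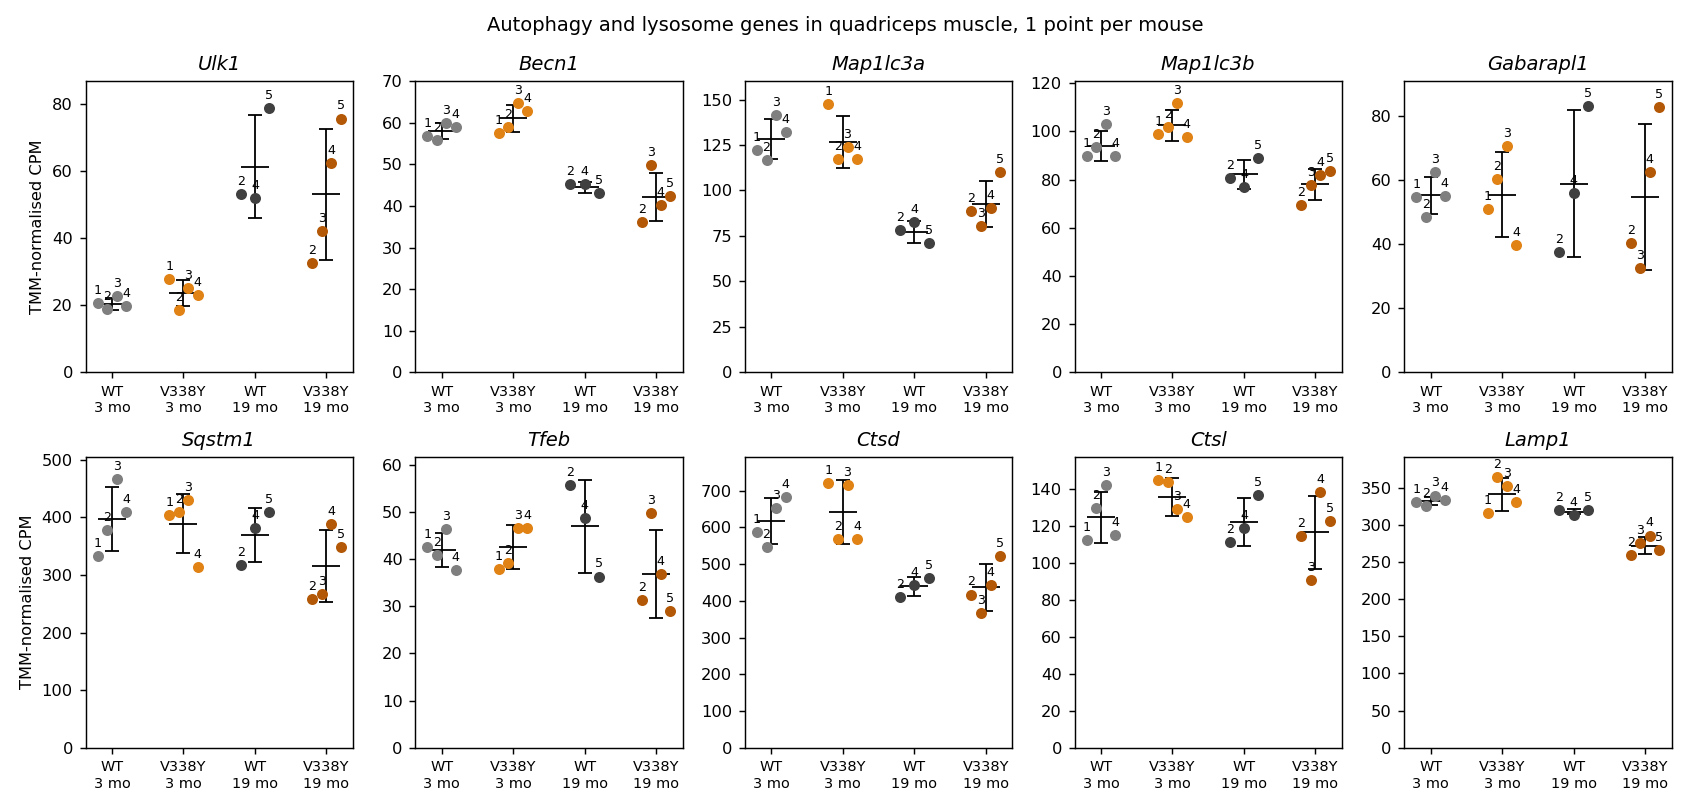
Level of each of the 10 genes in every mouse, as TMM-normalised CPM on a linear axis from 0, with the number of the mouse beside its point, and the mean and SD of the group as bars. Ulk1 lies higher in all 7 mice of 19 mo than in all 8 of 3 mo. Ctsd, Becn1, Map1lc3a and, by a narrow margin, Map1lc3b lie lower in all 7. The share of all genes that separate the ages in this way was not counted.

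Between 3 and 19 mo, Ulk1 rose in both genotypes and 3 genes fell in both, namely Map1lc3a, Becn1 and Ctsd. Map1lc3b and Lamp1 fell in V338Y mice and missed the threshold in WT mice, and Sqstm1, Gabarapl1, Tfeb and Ctsl passed it in neither. In WT mice 1 of the 10 genes was higher and 3 were lower at an adjusted p under 0.05 (edgeR quasi-likelihood test, Benjamini-Hochberg over all genes tested), where 18.3% of 13657 genes were called higher and 17.8% lower. In V338Y mice 1 was higher and 5 were lower, where 24.4% of 13868 genes were called higher and 22.5% lower. The median log2 fold change of the 10 genes was -0.08 in WT and -0.30 in V338Y mice, beside 0.02 and 0.07 over all genes.

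Ulk1 (ENSMUSG00000029512, chromosome 5 from 110784488 to 110810097, minus strand, GRCm38) encodes the kinase that starts autophagosome formation. In WT mice of 3 mo it was counted at 20.5, 18.7, 22.8 and 19.6 CPM, and in those of 19 mo at 53.1, 51.9 and 78.9 CPM. In V338Y mice it was at 27.9, 18.6, 25.1 and 22.9 CPM at 3 mo, and at 32.4, 42.0, 62.4 and 75.7 CPM at 19 mo. Young and old mice did not overlap in either genotype, and the old V338Y mice were spread over the widest range. Ulk1 was 3.00-fold higher at 19 mo in WT mice (log2 fold change 1.59, standard error 0.15, edgeR adjusted p = 0.000212). Among V338Y animals the difference was 2.27-fold (log2 fold change 1.18, standard error 0.25, edgeR adjusted p = 0.00394). With any 1 mouse left out, the log2 fold change lay between 1.36 and 1.68 in WT and between 0.97 and 1.35 in V338Y mice. Ulk2, the close relative of Ulk1, went the other way and fell in both, by 0.24 in WT (edgeR adjusted p = 0.0426) and by 0.54 in V338Y mice (edgeR adjusted p = 0.00393) on the log2 scale. Atg101, a partner of the kinase, also fell, by 0.67 and 0.83 (edgeR adjusted p = 0.00145 and 0.000559).

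Becn1 (ENSMUSG00000035086, chromosome 11 from 101285952 to 101302286, minus strand) encodes Beclin-1, the scaffold of the lipid kinase that works next in the pathway. Its level was 56.9, 55.9, 60.0 and 59.1 CPM in WT mice of 3 mo, and 45.3, 45.2 and 43.0 CPM in those of 19 mo. In V338Y mice, it went from 57.6, 59.0, 64.7 and 63.0 CPM to 36.2, 49.9, 40.2 and 42.5 CPM. Every old mouse was below every young one. The fall was 1.30-fold in WT (log2 fold change -0.38, standard error 0.08, edgeR adjusted p = 0.00617) and 1.43-fold in V338Y mice (log2 fold change -0.52, standard error 0.10, edgeR adjusted p = 0.00328). Pik3c3, the catalytic subunit that Beclin-1 binds, had log2 fold changes of -0.14 and -0.0013 with adjusted p-values of 0.353 and 0.995 (edgeR). Ambra1, which binds Beclin-1, rose by 0.59 in WT and 0.43 in V338Y mice on the log2 scale (edgeR adjusted p = 0.00229 and 0.00676).

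The Atg8 family has 5 genes in the lists, 3 of which are among the 10 genes. Map1lc3a (ENSMUSG00000027602, chromosome 2 from 155276297 to 155278073, plus strand) encodes LC3A. It was at 122, 117, 142 and 132 CPM in young and at 78.1, 82.4 and 70.8 CPM in old WT mice. In V338Y mice the values were 147, 117, 124 and 117 CPM at 3 mo and 88.8, 80.5, 90.5 and 110.2 CPM at 19 mo. Young and old were apart in both genotypes, with 1 old V338Y mouse, number 5, nearest to the young ones. The fall was 1.66-fold in WT mice (log2 fold change -0.73, standard error 0.10, edgeR adjusted p = 0.00101) and 1.36-fold in V338Y mice (log2 fold change -0.44, standard error 0.12, edgeR adjusted p = 0.0146).

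Map1lc3b (ENSMUSG00000031812, chromosome 8 from 121590361 to 121598760, plus strand) encodes LC3B, the form most used as a marker of autophagosomes. Its level was 89.6, 93.7, 103 and 89.9 CPM in young and 80.8, 77.1 and 88.9 CPM in old WT mice, apart by a narrow margin. In V338Y mice it was 98.8, 102, 112 and 97.8 CPM in young and 69.3, 77.6, 81.7 and 83.6 CPM in old animals. It fell 1.30-fold in V338Y mice (log2 fold change -0.38, standard error 0.09, edgeR adjusted p = 0.00831). In WT mice the log2 difference was -0.19 with a 95% interval of -0.40 to 0.01 (edgeR adjusted p = 0.128).

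Gabarapl1 (ENSMUSG00000030161, chromosome 6 from 129533160 to 129542346, plus strand) encodes a GABARAP-like Atg8 protein. Young WT mice had 54.8, 48.6, 62.4 and 54.9 CPM and old WT mice 37.6, 55.8 and 83.2 CPM. Young V338Y mice had 51.0, 60.2, 70.7 and 39.6 CPM and old V338Y mice 40.2, 32.6, 62.6 and 82.9 CPM. The old mice lay both above and below the young ones, and the log2 fold changes of 0.09 in WT (95% interval -0.41 to 0.60) and -0.0077 in V338Y mice (95% interval -0.64 to 0.62) leave room for a difference in either direction. The remaining genes of the family, Gabarapl2 and Gabarap, had lower levels at 19 mo. Gabarapl2 fell by 0.36 in WT (edgeR adjusted p = 0.0187) and by 0.66 in V338Y mice on the log2 scale (edgeR adjusted p = 0.000220). Gabarap fell by 0.29 in V338Y mice (edgeR adjusted p = 0.0182), with a log2 fold change of -0.18 in WT mice (edgeR adjusted p = 0.140). Of the 5 Atg8 genes, 2 were called lower in WT and 4 in V338Y mice, and 0 were called higher. Over all genes, 17.8% were called lower in WT and 22.5% in V338Y mice, and 18.3% and 24.4% higher. With 5 genes, a departure from these shares was not tested.

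Sqstm1 (ENSMUSG00000015837, chromosome 11 from 50199366 to 50210827, minus strand) encodes the receptor p62, which links ubiquitin-tagged cargo to LC3 and is itself degraded with it. It was at 333, 379, 466 and 409.8 CPM in young WT mice and at 318, 381 and 409 CPM in old ones. In V338Y mice it was at 404, 409, 431 and 314 CPM and at 258, 267, 388 and 348 CPM. The ages overlapped in both genotypes. The log2 fold change was -0.10 in WT (95% interval -0.41 to 0.20) and -0.29 in V338Y mice (95% interval -0.65 to 0.07), with edgeR adjusted p-values of 0.583 and 0.164. Nbr1, a receptor related to p62, had log2 fold changes of -0.22 and -0.22 (edgeR adjusted p = 0.0724 and 0.104). Elsewhere among the 10 cargo receptors, Optn (optineurin) and Bnip3, a receptor for mitochondria, fell in both genotypes, Optn by 0.83 in WT and 0.72 in V338Y mice and Bnip3 by 0.64 and 0.89 on the log2 scale. Wdfy3, which works on aggregates, rose by 0.79 and 0.78 (edgeR adjusted p = 0.00127 and 0.000194). Calcoco1 rose by 0.55 in WT mice (edgeR adjusted p = 0.00636). Of the 10 receptors, 2 rose and 2 fell in WT mice (20% and 20%), and 2 rose and 3 fell in V338Y mice (20% and 30%). Over all genes, 18.3% rose and 17.8% fell in WT, and 24.4% rose and 22.5% fell in V338Y mice.

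Tfeb (ENSMUSG00000023990, chromosome 17 from 47737030 to 47792419, plus strand) encodes the transcription factor named above. Its level was 42.5, 40.8, 46.4 and 37.7 CPM in young and 55.6, 48.7 and 36.3 CPM in old WT mice. In V338Y mice it was 37.8, 39.0, 46.5 and 46.6 CPM in young and 31.2, 49.8, 36.9 and 29.0 CPM in old animals. The old groups covered a wider range than the young ones and overlapped them, with log2 fold changes of 0.17 in WT (edgeR adjusted p = 0.385) and -0.20 in V338Y mice (edgeR adjusted p = 0.344). The V338Y value rested on mouse 3 of 19 mo, without which it was -0.39 (edgeR adjusted p = 0.0301). Among related factors, Tfe3 rose in V338Y mice by 0.72 on the log2 scale (edgeR adjusted p = 0.00149) and had a log2 fold change of 0.38 in WT mice (edgeR adjusted p = 0.0540). Mitf had 0.29 in WT (edgeR adjusted p = 0.0586) and -0.010 in V338Y mice (edgeR adjusted p = 0.938). Foxo1 and Foxo3, which switch on autophagy genes in muscle, rose in both genotypes, Foxo1 by 1.37 in WT and 1.497 in V338Y mice and Foxo3 by 0.94 and 0.77 on the log2 scale.

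Ctsd (ENSMUSG00000007891, chromosome 7 from 142375911 to 142388038, minus strand) encodes cathepsin D, an aspartic protease of the lysosome. Young WT mice had 586, 547, 653 and 683 CPM and old WT mice 411, 444 and 463 CPM. Young V338Y mice had 721, 567, 714 and 568 CPM and old V338Y mice 417, 368, 443 and 521 CPM. No old mouse reached the level of a young one. Ctsd was 1.40-fold lower at 19 mo in WT (log2 fold change -0.49, standard error 0.11, edgeR adjusted p = 0.00818) and 1.46-fold lower in V338Y mice (log2 fold change -0.54, standard error 0.14, edgeR adjusted p = 0.0121). Per kb of exon it had the highest mean level of the 10 genes in young WT muscle, 263 CPM per kb, and Ulk1 the lowest, 3.14 CPM per kb. With the median length of the coding transcripts in place of all exons, these levels were 305 and 4.64 CPM per kb, again the highest and the lowest.

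Ctsl (ENSMUSG00000021477, chromosome 13 from 64359337 to 64370890, minus strand) encodes the cysteine protease cathepsin L. Its values were 112, 129.7, 142 and 115 CPM in young and 112, 119 and 137 CPM in old WT mice. In V338Y mice they were 145, 144, 129 and 125 CPM in young and 114, 90.9, 138 and 123 CPM in old animals. The ages overlapped, with log2 fold changes of -0.03 in WT (95% interval -0.28 to 0.23) and -0.20 in V338Y mice (95% interval -0.50 to 0.09). The cathepsins Ctsb, Ctss and Ctsk passed the threshold in neither genotype, with log2 fold changes of 0.06, 0.51 and 0.20 in WT and 0.13, 0.46 and -0.20 in V338Y mice. Of the 13 proteases in the cathepsin list, Ctsd was the 1 called lower and Tpp1 the 1 called higher in each genotype, Tpp1 by 0.64 in WT and 0.56 in V338Y mice on the log2 scale (edgeR adjusted p = 0.00185 and 0.00427).

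Lamp1 (ENSMUSG00000031447, chromosome 8 from 13159161 to 13175338, plus strand) encodes an abundant glycoprotein of the lysosomal membrane. It had the narrowest spread of the 10 genes at 19 mo. WT mice had 331, 326, 339.7 and 333 CPM at 3 mo and 319.8, 314 and 319.5 CPM at 19 mo. V338Y mice had 316, 364, 353 and 331 CPM at 3 mo and 259.5, 276, 286 and 267 CPM at 19 mo. The old WT values lay just under the young ones, and the old V338Y values lay under those of all other mice. The fall in V338Y mice was 1.24-fold (log2 fold change -0.31, standard error 0.09, edgeR adjusted p = 0.0211), and it missed the threshold without mouse 2 or mouse 3 of the young V338Y group (edgeR adjusted p = 0.0693 and 0.0634). In WT mice it was -0.06 (edgeR adjusted p = 0.552, 95% interval -0.24 to 0.11). Lamp2, its partner in the membrane, had log2 fold changes of 0.15 and 0.23 (edgeR adjusted p = 0.267 and 0.0716).

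**Figure D2:**
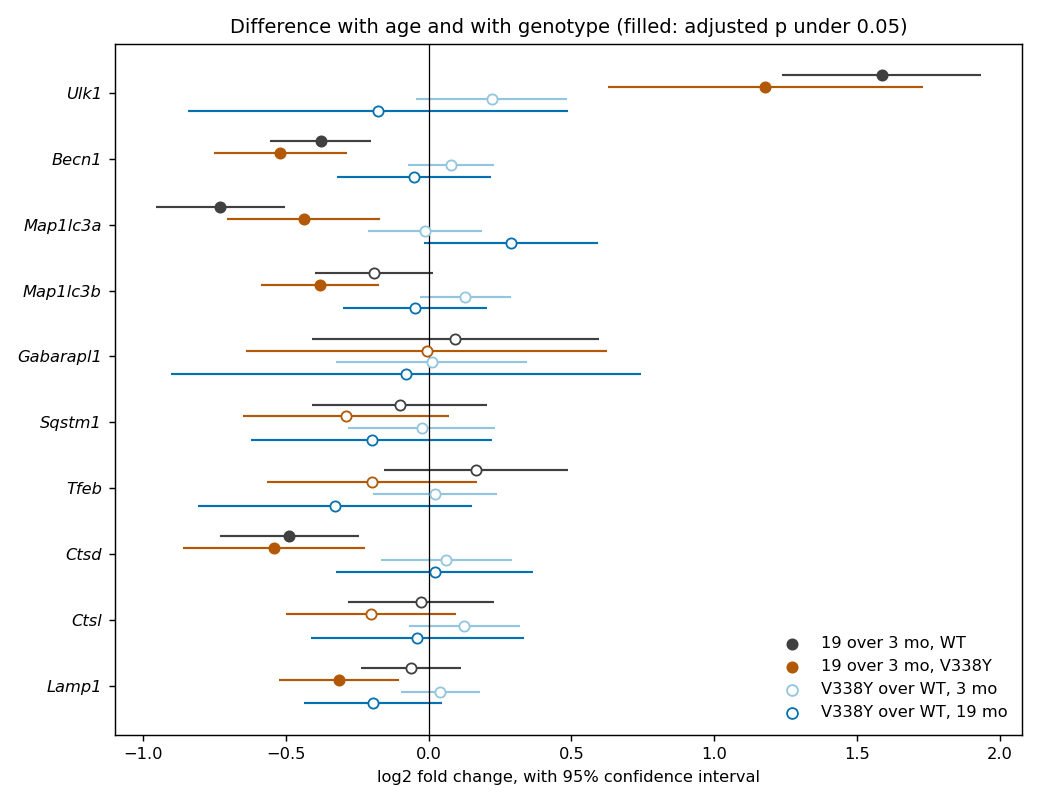
Log2 fold change (horizontal axis) of each gene at 19 over 3 mo in both genotypes and in V338Y over WT mice at both ages, with 95% confidence intervals. Filled points have an edgeR adjusted p under 0.05. They are 4 in WT and 6 in V338Y mice for age, and 0 for genotype at either age.

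Markers of other cell types differed with age too. The 12 macrophage markers summed to 234 to 335 CPM in young and 343 to 399 CPM in old WT mice, and to 255 to 422 CPM in young and 412 to 506 CPM in old V338Y mice. Of them 5 rose in WT and 6 in V338Y mice, and 0 fell. Of 5 endothelial markers 3 and 4 rose, and of 10 myofiber markers 1 rose and 2 fell in WT, and 0 rose and 4 fell in V338Y mice. Of 8 adipocyte markers 0 rose and 2 fell in WT, and 3 rose and 0 fell in V338Y mice. Of 6 fibroblast markers 1 rose and 3 fell in WT, and 0 rose and 3 fell in V338Y mice. Neutrophil markers were called in 0 of 3 tested in WT, and 7 of 8 tested rose in V338Y mice. Of the lymphocyte markers 0 were tested in WT, and 3 of 3 tested rose in V338Y mice, and of 3 erythroid markers 1 fell in WT and 0 were called in V338Y mice. Over all genes, 18.3% rose and 17.8% fell in WT, and 24.4% rose and 22.5% fell in V338Y mice. The part of these shifts in the differences of the 10 genes was not tested. Without mouse 5 of the old V338Y group, the one with the neutrophil transcripts, 6 of the 10 genes were again called in V338Y mice. This fit called 6391 of 13565 genes. It keeps the other old mice, so it does not test the shifts of the other cell types.

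The wider pathway was described by 157 genes in 13 lists, with the 10 genes among them, and all 157 passed the filter. In WT mice 26 of them rose and 34 fell between 3 and 19 mo, and in V338Y mice 32 rose and 47 fell. The shares that rose, 16.6% and 20.4%, were below those over all genes (18.3% and 24.4%), and the shares that fell, 21.7% and 29.9%, were above them (17.8% and 22.5%), which was not tested. By count, 22 were called higher in both genotypes, 32 were called lower in both, and 0 were called in opposite directions. The median log2 fold change was -0.03 in WT and -0.08 in V338Y mice.

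Differences between the lists were not tested, and each count can be read against the shares over all genes just given. In the list of 29 lysosomal hydrolases other than cathepsins, with their activators, 8 rose and 1 fell in WT mice (27.6% and 3.45%), and 11 rose and 4 fell in V338Y mice (37.9% and 13.8%). Ids, a sulfatase that breaks down glycosaminoglycans, rose by 0.94 in WT and 1.10 in V338Y mice on the log2 scale (edgeR adjusted p = 0.00208 and 0.000145), and Arsb, another sulfatase, by 1.43 in V338Y mice (edgeR adjusted p = 0.000127). Smpd1, the acid sphingomyelinase, fell in both, by 0.53 and 0.53. The median of this list was 0.21 in both genotypes. In the proton pump of the lysosome, the V-ATPase, 1 of 16 subunits rose and 4 fell in WT mice (6.25% and 25%), and 2 rose and 5 fell in V338Y mice (12.5% and 31.2%). Atp6v0a1, a membrane subunit, rose by 0.72 and 0.53, while Atp6v1f, a subunit of the cytosolic part, fell by 0.55 and 0.59. Of the 15 lysosomal membrane proteins 0 rose and 4 fell in WT, and 1 rose and 6 fell in V338Y mice.

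mTORC1 is the kinase complex that holds ULK1 and TFEB in check when nutrients are present, and it is docked on the lysosome by the Ragulator proteins, which Lamtor1 to Lamtor5 encode. In this list of 17 genes, 2 rose and 7 fell in WT mice, and 3 rose and 7 fell in V338Y mice. The genes that fell included all 5 Lamtor genes in both genotypes, and Lamtor4 had log2 fold changes of -0.77 in WT and -1.004 in V338Y mice. Rptor, the scaffold subunit of the complex, rose by 0.98 and 0.90 (edgeR adjusted p = 0.000361 and 9.60e-05), and Tsc2, which restrains the complex, by 0.73 and 0.64. In the list of 9 genes for growth of the phagophore, the early membrane, 3 rose and 2 fell in WT mice and 3 rose and 3 fell in V338Y mice. The lipid transfer protein Atg2a rose by 1.02 and 0.85, and Tmem41b, a lipid scramblase, fell by 0.60 in V338Y mice (edgeR adjusted p = 0.00413). Of the 13 genes for fusion with the lysosome, 3 rose and 5 fell in WT mice and 2 rose and 6 fell in V338Y mice. The SNARE proteins Snap29 and Ykt6 fell by 0.76 and 0.57 in WT mice and by 0.68 and 0.82 in V338Y mice, and Plekhm1, an adaptor on the lysosome, rose by 1.03 and 1.05 (edgeR adjusted p = 0.00242 and 0.000205).

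**Figure D3:**
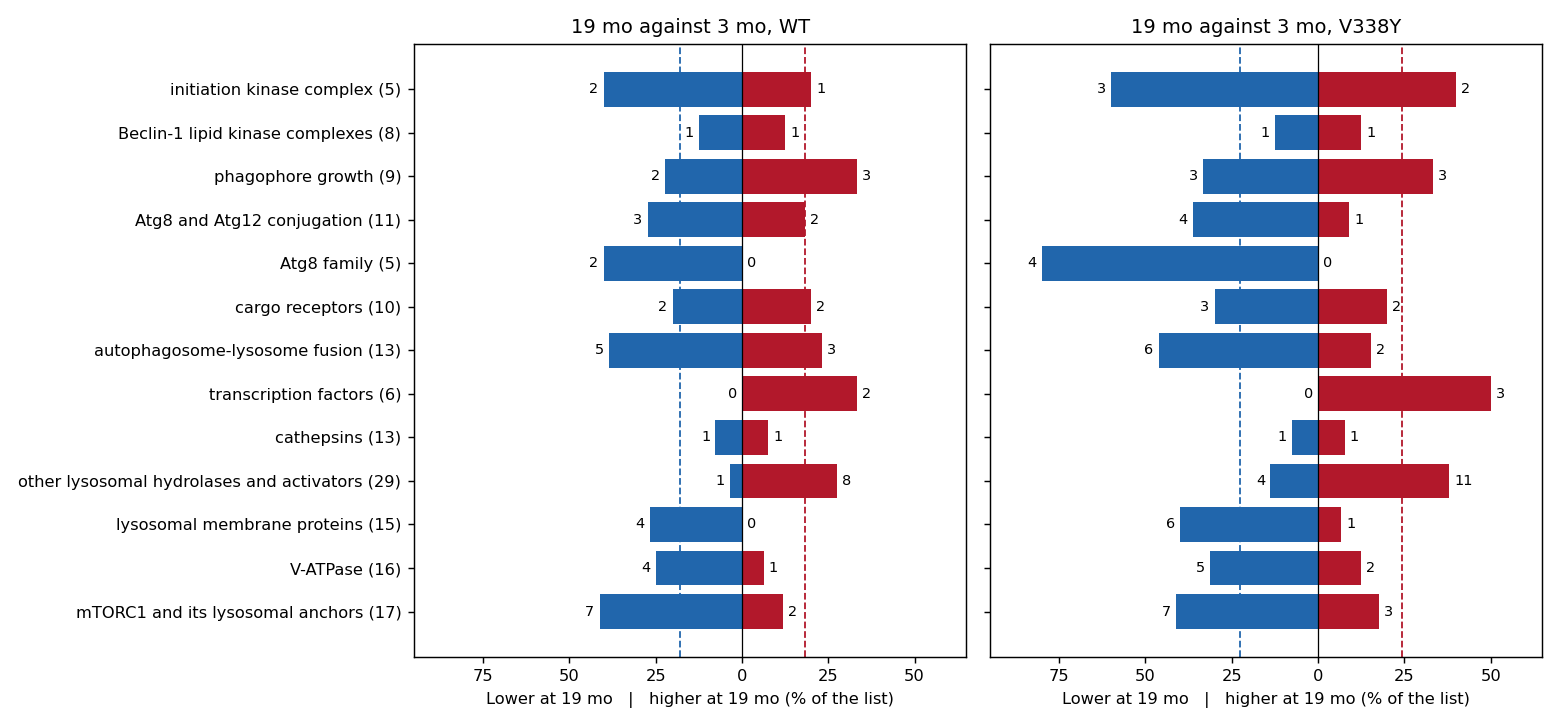
Share of each of the 13 lists (number of genes in brackets) called higher, to the right, or lower, to the left, at 19 mo than at 3 mo, with the count beside each bar, for WT and V338Y mice. Dashed lines mark the shares over all genes tested, 18.3% higher and 17.8% lower in WT and 24.4% and 22.5% in V338Y mice. No bar points to the right for the Atg8 family, and none to the left for the transcription factors.

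Between the genotypes, none of the 10 genes passed the test at either age. At 3 mo 0 of 10 were called, where 10 of 13333 genes (0.075%) were called in either direction by edgeR, and 0 of the 10 had an unadjusted p under 0.05. At 19 mo 0 of 10 were called, where 6 of 13833 genes (0.0434%) were, again with 0 of the 10 at an unadjusted p under 0.05. DESeq2 called 66 and 62 genes at these ages and 0 of the 10. At 19 mo, blocking on the number of the mouse gave 120 called genes, again with 0 of the 10 among them. Of all 157 pathway genes 0 were called at 3 mo and 0 at 19 mo by edgeR or DESeq2, with 12 (7.64%) and 9 (5.73%) at an unadjusted edgeR p under 0.05, beside 9.7% and 8.92% of all genes.

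The intervals show which sizes of difference these mice leave possible. At 3 mo the 95% interval of the V338Y to WT difference was narrowest for Lamp1, from -0.10 to 0.18 on the log2 scale, and it was -0.07 to 0.23 for Becn1, -0.21 to 0.19 for Map1lc3a and -0.28 to 0.23 for Sqstm1. Ulk1 had a log2 difference of 0.22 at 3 mo, with an interval of -0.04 to 0.49. At 19 mo the intervals were wider, -0.90 to 0.74 for Gabarapl1, -0.84 to 0.49 for Ulk1 and -0.81 to 0.15 for Tfeb. The smallest unadjusted p among the 10 at 19 mo belonged to Map1lc3a, with a log2 difference of 0.29 (interval -0.02 to 0.59, edgeR adjusted p = 0.564). Lamp1 was lower in each of the 4 old V338Y mice than in each of the 3 old WT mice, with a mean of 272 ± 11.4 CPM (SD, n = 4) against 318 ± 3.37 CPM (SD, n = 3). This log2 difference of -0.20 (interval -0.44 to 0.05) did not pass the test (edgeR adjusted p = 0.602).

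Whether the age difference depends on genotype was tested as an interaction in all 15 mice. By edgeR 0 of 14128 genes (0%) passed, with 1355 at an unadjusted p under 0.05, and DESeq2 called 26. None of the 10 genes was called by either. Lamp1 had the smallest p of the 10, with an age difference 0.26 lower in V338Y than in WT mice on the log2 scale (edgeR unadjusted p = 0.0258, adjusted p = 0.481). The difference was negative for 9 of the 10 genes, with Map1lc3a as the exception at 0.28 (interval -0.06 to 0.62), and its median was -0.19, beside -0.01 over all genes. Among the 157 pathway genes it was positive for 54, with a median of -0.09. All genes were measured in the same mice, so their signs are not independent, and the count of signs was not tested. The calls of Map1lc3b and Lamp1 in V338Y mice alone are thus not shown to differ from WT mice.

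At 19 mo the mice of a group differed among themselves most in Gabarapl1, Ulk1 and Tfeb, whose spread was wider there than at 3 mo, a difference that was not tested. The SD of log2 CPM within groups was 0.27 at 3 mo and 0.59 at 19 mo for Gabarapl1, 0.19 and 0.47 for Ulk1, and 0.14 and 0.33 for Tfeb. For Lamp1 it was 0.07 and 0.05. Most mouse numbers recur in both genotypes at each age, and at 19 mo Gabarapl1 followed them. It was at 37.6 CPM in WT and 40.2 CPM in V338Y mouse 2, at 55.8 and 62.6 CPM in the mice numbered 4, and at 83.2 and 82.9 CPM in the mice numbered 5. The match of 3 pairs in a gene named for its spread was not tested. With the number as a block, the standard error of its genotype difference was 0.11 in place of 0.36, and the log2 difference was 0.12 (edgeR adjusted p = 0.578). The block leaves out V338Y mouse 3, which has no partner and the lowest value (32.6 CPM). The smaller error can therefore not be credited to the number alone. The labels do not say what a number stands for. Both mice of 19 mo numbered 5 also had more RNA of the myofiber marker Myh2, at 4242 CPM in WT and 4876 CPM in V338Y. The other mice of 19 mo had 243 to 875 CPM, and any part of fiber make-up in the Gabarapl1 values was not tested. Among the mice of 3 mo, the order of numbers 1 to 4 differed between the genotypes. There Gabarapl1 was at 54.8, 48.6, 62.4 and 54.9 CPM in WT and at 51.0, 60.2, 70.7 and 39.6 CPM in V338Y mice.

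Some of the genes varied together across the 15 mice once the mean of each group was removed from log2 CPM. Sqstm1 and Gabarapl1 had a Pearson r of 0.81 and a Spearman rho of 0.85, with r of 0.77 among the mice of 3 mo and 0.87 among those of 19 mo. Permuting mice within groups gave p = 0.00382 for r and 0.0013 for rho, and adjusted over the 45 pairs 0.0717 and 0.0358. Without the 2 mice farthest from the median in Sqstm1, r was 0.77. For Map1lc3a and Ctsd r was 0.79 and rho 0.77 (permutation p = 0.0042 and 0.00479, adjusted 0.0717 and 0.0439), and r was 0.64 without 2 mice. Sqstm1 and Ctsl had r of 0.76 and rho of 0.77 (permutation p = 0.00637 and 0.00352, adjusted 0.0717 and 0.0439), and r was 0.82 without 2 mice. By r, 0 of 45 pairs passed an adjusted p under 0.05, and by rho 5 did, the 3 above with Sqstm1 and Map1lc3b (rho 0.78, adjusted permutation p = 0.0358) and Ulk1 and Ctsd (rho 0.71, adjusted permutation p = 0.0439). All points share their library, and the correlation of the deviations with log2 of the library total was at most 0.42 in size, for Map1lc3a.

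**Figure D4:**
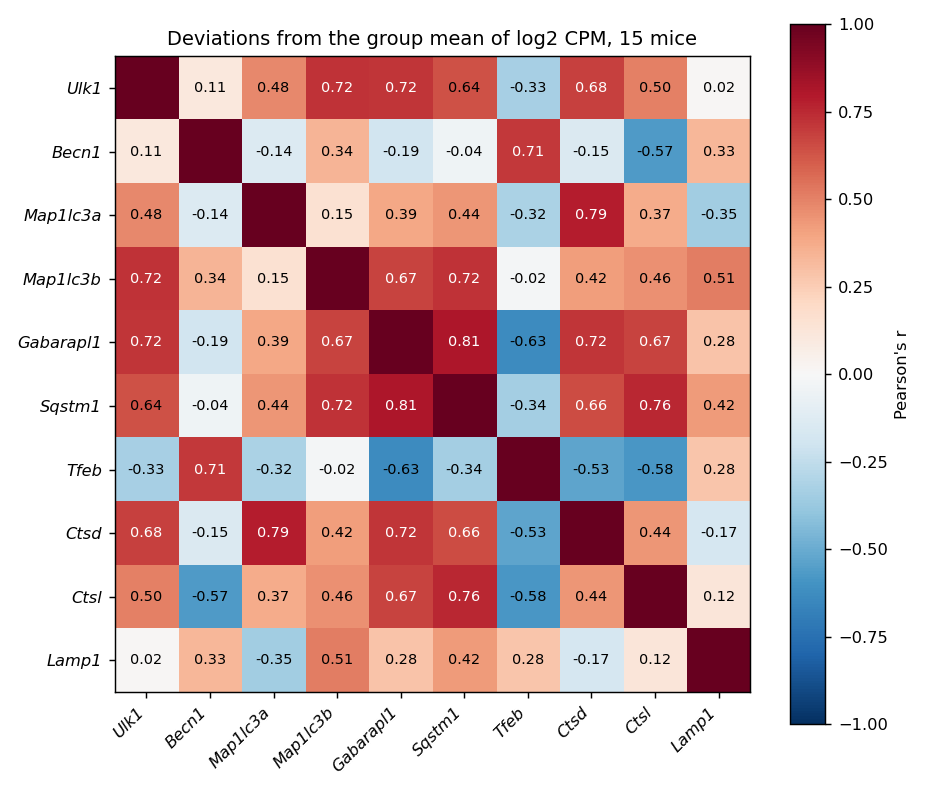
Pearson's r for each of the 45 pairs of genes, from deviations of log2 CPM from the group mean in 15 mice (red for positive, blue for negative r). Sqstm1 with Gabarapl1, at 0.81, is the strongest pair, and Tfeb with Gabarapl1, at -0.63, is negative.

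Over the same deviations, the genes most like each of the 10 were sought among the 9516 genes with a mean of at least 5 CPM. Tfeb was most like Chm (r = 0.96), Gabarapl1 most like Cat, which encodes catalase (r = 0.95), Map1lc3b most like Ythdf2 (r = 0.94) and Ulk1 most like Pdcd11 (r = 0.94). Ulk2 was the third for Becn1, with r of 0.91, and Ftl1, which encodes the light chain of ferritin, the third for Ctsd, with r of 0.86. The other leading genes were Cnksr1 for Sqstm1, Arfrp1 for Map1lc3a, Tfdp1 for Becn1, Hgs for Ctsl, Gramd1a for Ctsd and Rabgap1 for Lamp1, with r of 0.89 to 0.92. These are the highest of many correlations over 15 mice and are given as a description.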

How the data were processed

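Quadriceps RNA of 15 mice was sequenced as single-end reads with a stranded kit. The authors quantified genes with RSEM, and the deposited values are its expected counts per gene, given as whole numbers without normalisation. The methods name GRCm37 with Ensembl annotation, and the submitters' processing notes list GRCm38 and STAR 2.4.2a. Here symbols, positions and exon lengths come from GENCODE annotation of GRCm38. Whether counting used strand is not given in the sources used here. RSEM divides reads that match several genes, so close copies depend on each other. Genes that overlap the 10 in exons and are in the files had at most 55 counts in any mouse, apart from Zcchc14 with 627, which shares 58 bases with Map1lc3b.

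Groups were taken from the labels. Genes that reached 10 counts in 50% or more of the animals of a compared group were kept, library sizes were normalised by TMM, and the groups compared (all 15 mice for the interaction) were tested with edgeR 4.0.16 (R 4.3.3) by its quasi-likelihood test, with Benjamini-Hochberg adjustment over all genes and a threshold of 0.05. The code was tested on simulated data. The labels give each mouse a number but do not tie samples to litters or days. Same-numbered WT and V338Y mice deviated together at 19 mo (correlations 0.137 to 0.410 in 3 pairs, against -0.416 to 0.486 in the 9 other pairings), but not in every pair at 3 mo or between ages. Alternatives were RLE and upper-quartile normalisation, no filter, leaving out the 10 most counted genes, DESeq2 1.42.0, a fit of all 15 mice, a replicate block and leaving out each mouse.

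The text names the 10 genes, their close relatives fixed by name, up to 2 called genes with the smallest p from each list and comparison, the genes most like each of the 10, and the label checks. Smpd1, Bnip3, Atp6v1g1, Myh2 and the Lamtor genes other than Lamtor4 fall outside this rule and were chosen after their values were seen. The 10 genes and all lists were chosen with earlier results of these data known.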

Additional observations from a re-analysis of the deposited data

How the results depend on the processing

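The number of the 10 genes called with age was the same under RLE and upper-quartile normalisation, no filter, DESeq2, the fit of all 15 mice and the fit without the 10 most counted genes, 4 in WT and 6 in V338Y mice. Over all genes these settings called 4629 to 4978 in WT and 6202 to 7101 in V338Y mice. A replicate block by the number of the mouse keeps fewer mice, those with a partner. With it, 2 of the 10 genes were called with age in WT mice. Becn1 (edgeR adjusted p = 0.127) and Ctsd (edgeR adjusted p = 0.0531) missed the threshold there. In V338Y mice 5 were called, and Lamp1 was not (edgeR adjusted p = 0.0830). Of the 157 pathway genes 21 were called in WT mice in place of 60. Over all genes the calls in WT mice fell as well, from 4940 of 13657 to 1981 of 14176. In V338Y mice they went from 6505 of 13868 to 5499 of 13402. The block also called 1 pathway gene in the interaction in place of 0, Atp6v1g1, where it called 127 of 13974 genes in place of 0 of 14128. Same-numbered mice of the 2 ages did not deviate together, so there the samples share only a number. With 1 mouse left out, 4 of the 10 genes were called in WT and 5 to 7 in V338Y mice, and 42 to 62 and 61 to 74 of the 157 pathway genes. Over all genes these fits called 3431 to 4836 in WT and 5181 to 6448 in V338Y mice, so the calls varied over all genes as well. Of the differences that were not called, 44 values changed sign, 36 with a mouse left out and 8 otherwise. The log2 differences that did so under the block were those of Gabarapl1 with age in WT mice (-0.17), with genotype at 3 mo (-0.0111) and 19 mo (0.12) and in the interaction (0.10), of Ctsl with genotype at 19 mo (0.0736) and of Ctsd in the interaction (0.0110), and Ctsd with genotype at 19 mo did so without a filter (-0.00862) and in the fit of all 15 mice (-0.00803). With 1 mouse left out, Gabarapl1 ranged from -0.25 to 0.33 with age in WT and from -0.27 to 0.16 in V338Y mice, from -0.13 to 0.14 with genotype at 3 mo, from -0.35 to 0.26 at 19 mo and from -0.36 to 0.22 in the interaction. Ctsl ranged from -0.12 to 0.0418 with age in WT mice and from -0.14 to 0.0735 with genotype at 19 mo, and Ctsd from -0.0696 to 0.11 with genotype at 19 mo and from -0.13 to 0.0118 in the interaction. With genotype at 19 mo, Becn1 ranged from -0.13 to 0.0133, Map1lc3b from -0.0928 to 0.0132 and Ulk1 from -0.39 to 0.0485. At 3 mo Map1lc3a ranged from -0.0949 to 0.0356, Sqstm1 from -0.0988 to 0.0636 and Tfeb from -0.0249 to 0.0789. The causes were not tested.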
